A study of Mus musculus with 50 samples.

Results

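The 19 RNAs described here are the small nuclear, nucleolar and other short stable noncoding RNAs of a table of 11708 genes counted in whole mouse brains at embryonic day E13.5. They were chosen by gene symbol: 25 symbols began with the names of small nucleolar RNAs (Snora, Snord), Cajal body RNAs (Scarna), U RNAs (Rnu), 7S RNAs (Rn7s), Y RNAs (Rny), telomerase RNA (Terc), RNase P or RNase MRP RNA (Rpph1, Rmrp) or numbered microRNA loci, and 6 of them ending in "hg" were set aside as host genes. The members were 5 Scarna genes, 5 snoRNA genes, 2 Y RNA genes, 2 microRNA loci and 5 other RNAs (Rn7sk, Rn7s6, Rnu12, Rpph1 and Terc). The table also chose them by level, since the smallest count of any gene lay between 2.9 and 3.09 CPM in every library, where CPM are counts scaled to a common library total, and RNAs of these families below that level are not analysed here. The member nearest to that minimum was Scarna17, at 2.92 CPM in its lowest library.

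RNA sequencing was done on 18 brains of strain FVB/ANTJ, 3 in each of 6 groups. The labels give 1 set of groups for the gtf2i comparison (wt, gtf2i and gtf2i/gtf2i) and another for the ird1 comparison (wt, ird1 and ird1/ird1), each with its own wt brains. A genotype written once was read as 1 mutant allele and a genotype written on both sides of a slash as 2 mutant alleles. The construction of the alleles, the sex of the embryos and whether brains shared a litter are not given in the labels, so p-values measure the spread between these libraries. The design asks how mutation of Gtf2i or of Gtf2ird1, which both encode transcription factors of the TFII-I family, alters RNA levels in the embryonic brain.

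Small stable noncoding RNAs work inside RNA-protein particles that make, modify and cut other RNAs. Box C/D snoRNAs guide ribose methylation and box H/ACA snoRNAs guide pseudouridylation of ribosomal RNA, while their Cajal body relatives, the scaRNAs, act on spliceosomal RNAs. Several of the other members have well-known single tasks: 7SK RNA (Rn7sk) holds the transcription elongation kinase P-TEFb inactive, the RNase P RNA (Rpph1) trims transfer RNA precursors, U12 (Rnu12) is a core RNA of the minor spliceosome, telomerase RNA (Terc) is the template for telomere repeats, and Y RNAs bind the Ro60 protein. RNA polymerase III transcribes 7SK, RNase P and Y RNAs, whereas most vertebrate snoRNAs are cut out of the introns of host genes.

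Sequences were at hand only for the microRNA loci. They are shown because these 2 loci differ in base composition and in behaviour across libraries. The mature strands, from RefSeq with the coordinates of assembly GRCm38.p6 and with the seed (bases 2 to 8) in capitals, are as follows.
miR-6236, chr9:110281353-110281371, plus strand: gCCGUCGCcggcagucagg
miR-5136, chr19:8888709-8888728, minus strand: aUAUGCGAgggaacuacugg
Their seeds are different, so the 2 do not form a seed family. The miR-6236 strand has 78.9% G and C over its 19 bases, against 50% over the 20 bases of miR-5136. The whole Mir5136 hairpin (chr19:8888699-8888774, minus strand, 76 bases) is printed next with the mature strand in capitals, because the deposited counts were made over a feature of that same length.
Mir5136 hairpin: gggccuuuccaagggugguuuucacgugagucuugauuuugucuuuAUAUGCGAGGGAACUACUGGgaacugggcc
The count of a microRNA locus in these libraries of total RNA does not tell the mature strand from its hairpin or from a longer transcript that spans it.

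Total counts were 3239117 to 7371483 per library, and the lowest count of any member was 21, which carries a counting error of 21.8%. The targeted transcript was lower in the gtf2i comparison, where Gtf2i fell from 624 ± 30.7 CPM (wt) to 368 ± 6.23 CPM (gtf2i) and 82.5 ± 0.797 CPM (gtf2i/gtf2i, SD, n = 3 per group). Gtf2ird1 transcript was not lower but higher in the ird1 comparison, at 98.2 ± 13.52 CPM (wt), 149 ± 1.93 CPM (ird1) and 222.8 ± 4.21 CPM (ird1/ird1), so that transcript level does not show loss of the gene product in those libraries. It was also higher in the gtf2i comparison, at means of 92.4 CPM (wt) and 267 CPM (gtf2i/gtf2i), a log2 difference of 1.52 (SE 0.0915, adjusted p = 5.61e-07 by edgeR). All 6 neuronal markers and all 7 radial glia markers looked for were in the table, with summed levels of 4065 to 5196 and 1876 to 2697 CPM per library. One library stood apart: replicate 2 of the wt brains of the ird1 comparison had the lowest total count, mitochondrial transcripts at 0.218% of counts against 0.562% to 1.00% in the others, and the highest level of 11 of the 19 members. Several results of the ird1 comparison are therefore also given without it, and the others include it.

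The 19 RNAs covered a wide range of levels. Per kilobase of the transcript length given in the table, Rn7sk was highest, with a mean of 33447 ± 4999 CPM per kb (SD over 18 libraries), and alone held 0.916% to 1.47% of all counts in a library. Rny3 (8292 ± 5205 CPM per kb) and Mir6236 (7681 ± 4776 CPM per kb) followed and did not differ beyond their spread, nor did Mir6236 and Rny1 (4592 ± 2615 CPM per kb). Scarna2 came next at 1862 ± 295 CPM per kb and Rpph1 at 798 ± 299 CPM per kb. Below them Rnu12, Scarna13, Scarna9, Snord104, Snord17, Terc, Snora23, Mir5136, Scarna6, Snora57, Scarna17, Snord118 and Rn7s6 had means from 405 down to 25.7 CPM per kb, and the ranges of neighbours in that order overlapped. A Cajal body RNA, Scarna2, was thus the most abundant guide RNA of the set, and 5 members (Snord104, Mir5136, Scarna17, Snord118 and Rn7s6) had fewer than 100 counts in every library. Near-identical copies are known for the 7SK, 7S and Y RNA families, and how reads shared between copies were counted is not given in the sources used here, so the levels of these members are uncertain.

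**Figure D1:**
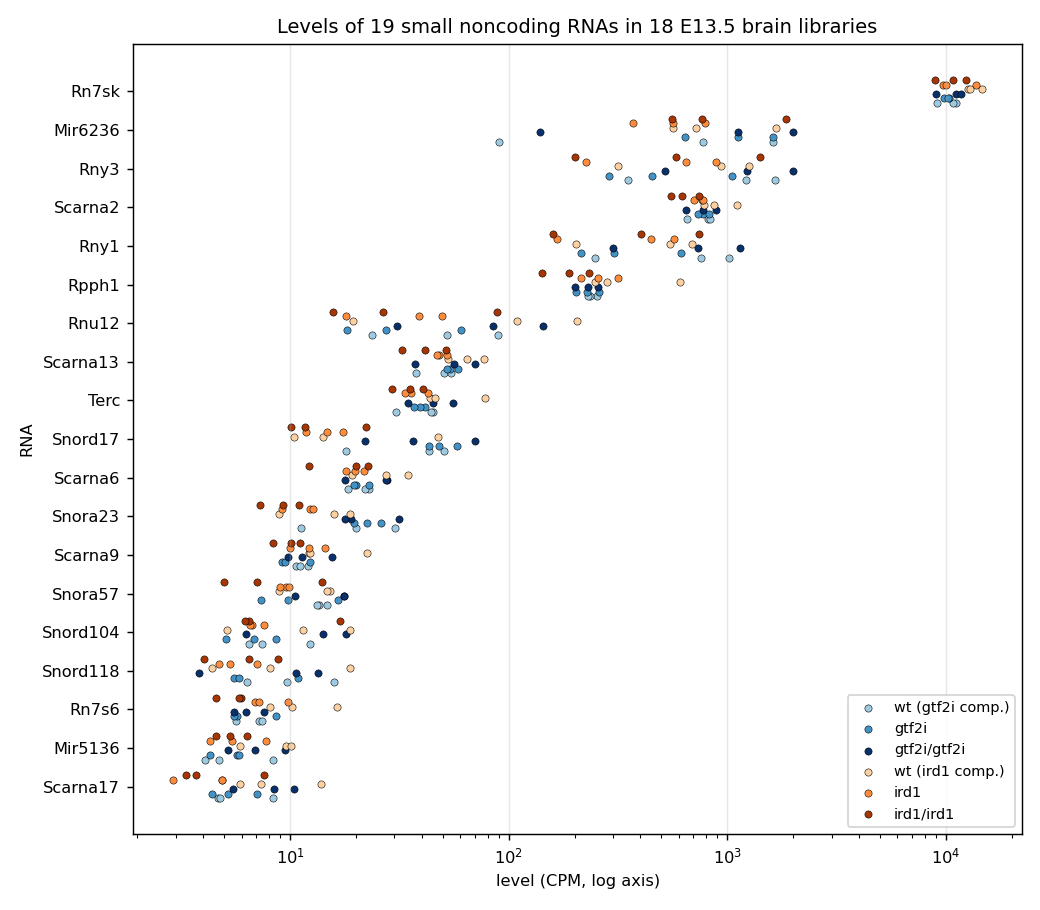
Level of each of the 19 RNAs in CPM (horizontal log axis, not corrected for length), 1 point per library, coloured by the 6 genotype groups. Rn7sk points lie close together between 8960 and 14649 CPM, while Mir6236 points spread from 90.0 to 2007 CPM.

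Levels of these RNAs differed more between brains of the same genotype than those of most genes. The within-group SD of log2 CPM had a median of 0.45 over the 19 members and 0.17 over all genes, and each member was above the all-gene median. Rn7sk and Scarna2 were little above it, with a smaller SD in 58.7% and 59.6% of all genes. The genes were not matched for level. Over the 19 members the rank correlation of mean CPM and SD was 0.009. The shorter RNAs varied most: the median SD was 0.69 over the 10 members of at most 151 bases and 0.32 over the 9 longer ones. The rank correlation of length and SD over the 19 members was -0.563, given as a description since the members share libraries. Mir6236 differed 22.3-fold between its lowest and highest library, Rnu12 13.1-fold and Rny3 9.85-fold, against 1.63-fold for Rn7sk and 2.00-fold for Scarna2. In bulk tissue, fewer cells of a type and less RNA per cell cannot be told apart.

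The Y RNAs, small RNAs bound by Ro60 that are implicated in RNA quality control and DNA replication, lie 6345 bases apart on chromosome 6 (Rny3 at chr6:47781624-47781724 and Rny1 at chr6:47788070-47788180, GRCm38.p6). With the values of each group in ascending order here and below, Rny3 in the gtf2i comparison was at 351, 1217 and 1655 (wt), 288, 453 and 1052 (gtf2i) and 521, 1228 and 1990.1 CPM (gtf2i/gtf2i). In the ird1 comparison it was at 316, 934 and 1256 (wt), 227, 646 and 888 (ird1) and 202, 586 and 1414 CPM (ird1/ird1). Every genotype held libraries several-fold apart, and all groups overlapped. Rny1 was at 247, 761 and 1014 (wt), 215, 302 and 615 (gtf2i) and 301, 734 and 1139 CPM (gtf2i/gtf2i). Its levels in the ird1 comparison were 204, 549.9 and 689 (wt), 166, 447 and 570.2 (ird1) and 160.2, 402 and 741 CPM (ird1/ird1). Brains low and high in Rny1 were found in every genotype, as for Rny3.

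Rnu12 (chr15:83149645-83149794), the U12 RNA of the minor spliceosome, which removes a rare class of introns, was as scattered. It was at 23.7, 52.2 and 89.4 (wt), 18.3, 27.4 and 60.4 (gtf2i) and 30.7, 84.5 and 144 CPM (gtf2i/gtf2i). Libraries of the ird1 comparison held 19.4, 109 and 206 (wt), 18.1, 38.7 and 49.6 (ird1) and 15.6, 26.5 and 88.4 CPM (ird1/ird1). The highest value belongs to the wt library with the lowest total count, and the groups overlapped in both comparisons. Mir6236 (chr9:110281287-110281409), whose mature strand is printed above, was at 90.0, 776 and 1618 (wt), 639.7, 1119 and 1621 (gtf2i) and 139, 1116 and 2007 CPM (gtf2i/gtf2i). The ird1 comparison gave 564, 720.3 and 1679.6 (wt), 369.6, 562 and 791 (ird1) and 561, 766 and 1866 CPM (ird1/ird1). Its lowest libraries, in wt and in gtf2i/gtf2i of the gtf2i comparison, carry the same opening number in their sample titles, 12419, but the gtf2i library of that number was the highest of its group, at 1621 CPM.

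**Figure D2:**
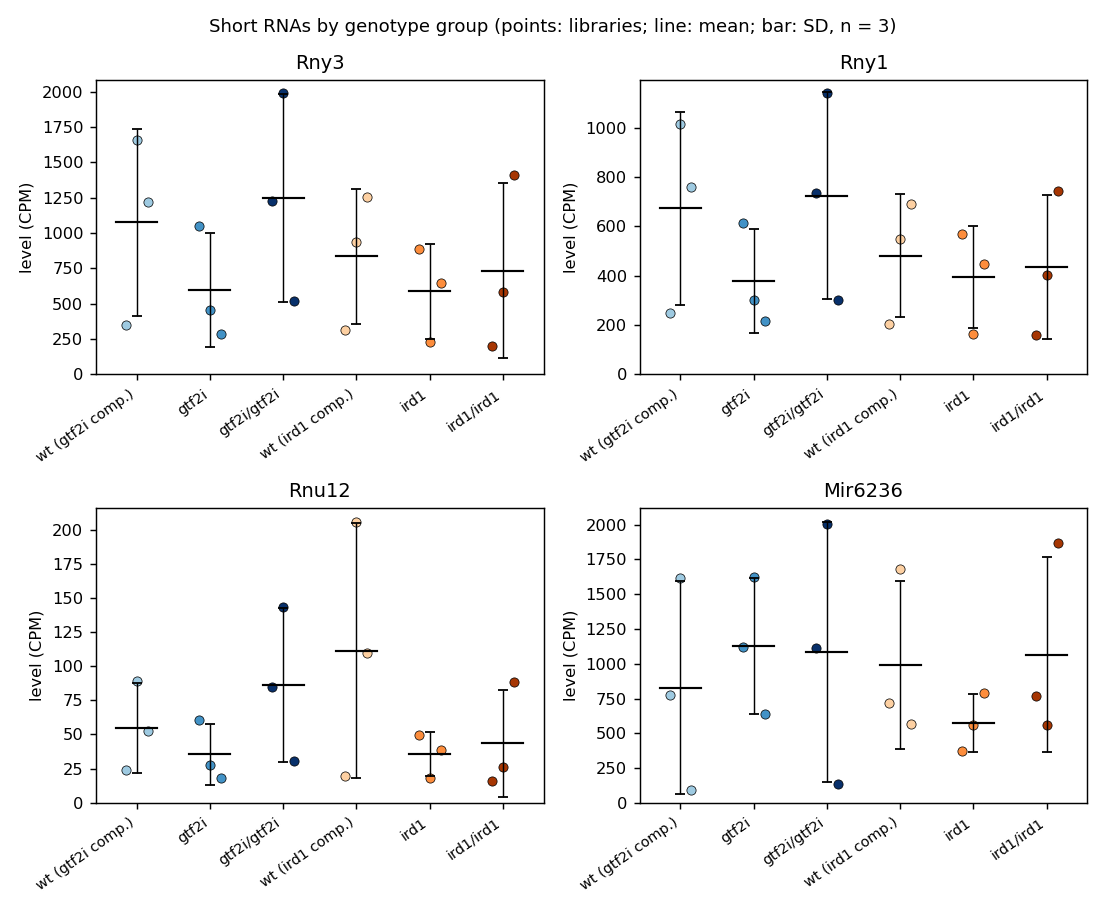
Levels in CPM (vertical axes, linear) of Rny3, Rny1, Rnu12 and Mir6236 in the 6 genotype groups. Points are libraries, horizontal lines means and bars SD (n = 3), and within each panel the libraries of every group overlap those of at least 1 other group of the same comparison.

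Rn7sk (chr9:78175302-78175633), the 7SK RNA that restrains transcription elongation, was steady by contrast. It was at 9145, 10792 and 11193 (wt), 9857, 10200.3 and 10322 (gtf2i) and 9060.5, 11124 and 11765 CPM (gtf2i/gtf2i). In the ird1 comparison it was at 12645, 12959 and 14649 (wt), 9663, 9975 and 13734 (ird1) and 8959.8, 10822 and 12409 CPM (ird1/ird1). The 3 wt libraries of the ird1 comparison lay above all 3 ird1/ird1 libraries, and also above all 3 wt libraries of the gtf2i comparison.

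Nearly all members of the ird1 comparison had lower levels in mutant than in wt brains, but none passed the test. Between ird1/ird1 and wt, edgeR, by its quasi-likelihood test adjusted over all genes (Benjamini-Hochberg), called 0 of 19 members at an adjusted p under 0.05 (0.00854% of all genes were called), and DESeq2 called 0. At an unadjusted p under 0.05, 11 members were lower and 0 higher, against 16.1% of all genes in either direction and 8.40% in the lower direction. Of the 19 members, 18 were lower in ird1/ird1, with a median log2 difference of -0.61 against -0.004 over all genes. The libraries did not overlap for 7 members, all lower (11.8% of all genes): Rn7sk, Scarna2, Rpph1, Scarna13, Terc, Scarna9 and Rn7s6.

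Scarna2, the most abundant guide RNA here, had the smallest p. It was at 785, 869 and 1106 (wt), 701, 768 and 775 (ird1) and 554, 618 and 741 CPM (ird1/ird1), and each wt library lay above every mutant one. The log2 difference between ird1/ird1 and wt was -0.54 (SE 0.133, adjusted p = 0.296 by edgeR). Libraries of the gtf2i comparison held 652, 819.7 and 835 (wt), 738, 777 and 828 (gtf2i) and 647, 773 and 892 CPM (gtf2i/gtf2i), with full overlap. Scarna13 (chr12:105031075-105031349), another Cajal body RNA, which lies within its host gene Snhg10, was at 52.8, 64.5 and 76.7 (wt), 46.7, 47.8 and 51.9 (ird1) and 32.4, 41.3 and 51.8 CPM (ird1/ird1). Its wt libraries also lay above every mutant one, and the log2 difference between ird1/ird1 and wt was -0.63 (SE 0.163, adjusted p = 0.296 by edgeR). The gtf2i comparison gave Scarna13 levels of 37.6, 50.4 and 54.2 (wt), 52.4, 53.6 and 58.9 (gtf2i) and 37.4, 55.9 and 69.8 CPM (gtf2i/gtf2i), where the groups overlapped.

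Rpph1 (chr14:50807447-50807771), the RNA subunit of RNase P, was at 249, 283 and 606 (wt), 213, 256 and 317 (ird1) and 142, 189 and 234 CPM (ird1/ird1). The wt library that stood apart had by far the highest level, and every ird1/ird1 library was below every wt one. The log2 difference was -1.02 (SE 0.270, adjusted p = 0.296 by edgeR). Its 9 libraries of the gtf2i comparison lay close together, at 231, 235 and 253 (wt), 203, 228 and 258 (gtf2i) and 201, 229.9 and 256 CPM (gtf2i/gtf2i). Terc (chr3:96414437-96414833), the telomerase RNA, was at 43.7, 46.0 and 78.0 (wt), 33.4, 35.8 and 42.8 (ird1) and 29.3, 35.5 and 40.5 CPM (ird1/ird1). All wt libraries of Terc lay above all mutant ones, with a log2 difference of -0.65 (SE 0.197, adjusted p = 0.296 by edgeR) for ird1/ird1. Terc in the gtf2i comparison was at 30.5, 44.0 and 44.9 (wt), 36.7, 39.3 and 41.3 (gtf2i) and 34.5, 45.0 and 55.5 CPM (gtf2i/gtf2i), and these overlapped.

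Rn7s6, named as a 7S RNA and the least abundant member per kilobase, was at 8.11, 10.2 and 16.5 (wt), 6.93, 7.23 and 9.72 (ird1) and 4.58, 5.84 and 5.96 CPM (ird1/ird1). Its ird1/ird1 libraries lay below every wt and every ird1 library, with a log2 difference to wt of -1.01 (SE 0.253, adjusted p = 0.296 by edgeR). In the gtf2i comparison it was at 5.67, 7.17 and 7.46 (wt), 5.56, 5.70 and 8.65 (gtf2i) and 5.54, 6.26 and 7.56 CPM (gtf2i/gtf2i), with no separation. Scarna17, on chromosome 18, was at 5.87, 7.34 and 13.8 (wt), 2.92, 4.85 and 4.87 (ird1) and 3.32, 3.72 and 7.57 CPM (ird1/ird1). For this RNA it was the ird1 libraries, not the ird1/ird1 ones, that lay wholly below wt. Scarna17 in the gtf2i comparison was at 4.67, 4.75 and 8.31 (wt), 4.39, 5.20 and 7.08 (gtf2i) and 5.49, 8.42 and 10.4 CPM (gtf2i/gtf2i), and the groups overlapped. The only member with a higher mean log2 level in ird1/ird1 than in wt was Mir6236, at a log2 difference of 0.10 (SE 0.415).

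Several of these values depended on single libraries or moved with other features of the libraries. When wt replicate 2 was left out, the median log2 difference between ird1/ird1 and wt was -0.37, 15 members were lower and 6 (against 7.49% of all genes) had an unadjusted p under 0.05. Without it, the log2 differences were -0.38 (SE 0.101) for Scarna2, -0.50 (SE 0.153) for Scarna13, -0.51 (SE 0.165) for Rpph1, -0.37 (SE 0.142) for Terc and -0.75 (SE 0.227) for Rn7s6. Snord17, at -0.61 with all libraries, was at 0.23 (SE 0.284) without that library. The count at an unadjusted p under 0.05 was 5 (10.2% of all genes) without ird1/ird1 replicate 2, which had the lowest level of 9 members, and 7 without ird1/ird1 replicate 1 (8.40%) or wt replicate 3 (20.0%). It rose to 14 (21.4%) without wt replicate 1, when all 19 members were lower with a median of -0.79, and to 13 (10.9%) without ird1/ird1 replicate 3. With the trend of log2 difference on transcript length removed, the median was -0.19, 15 members were lower and 5 (against 12.9% of all genes) had an unadjusted p under 0.05. Scarna2 was then at -0.25, Scarna13 at -0.28, Rpph1 at -0.67, Terc at -0.36 and Rn7s6 at -0.67. Of the 56 replication-dependent histone genes, whose transcripts lack poly(A) tails, 0 were called and 40 were lower at an unadjusted p under 0.05, with a median log2 difference of -0.34 and summed levels of 13012 to 17970 CPM in wt and 10048 to 13015 CPM in ird1/ird1. Mitochondrial transcripts had a median log2 difference of 0.35 over 11 genes. Their share of counts was 0.218% in wt replicate 2, 0.615% and 0.680% in the other wt libraries and 0.596% to 0.697% in ird1/ird1. Without wt replicate 2 the shares of the groups thus overlapped. Of the 6 neuronal markers 3 were higher and 0 lower at an unadjusted p under 0.05, with a median log2 difference of 0.27 and overlapping summed levels (4388 to 4557 CPM in wt, 4311 to 4961 CPM in ird1/ird1). The part of transcript length, histone level, mitochondrial share or neuronal markers in the lower levels of the small RNAs was not tested.

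Within the numbers that open the sample titles, whose meaning the labels do not state, the direction was alike. Under number 11610 (2 libraries against 2) 18 of 19 members were lower in ird1/ird1 than in wt, with a median log2 difference of -0.55, and under number 11902 (1 against 1) 16 were lower, with a median of -0.61. The wt library under 11902 is the one that stood apart.

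**Figure D3:**
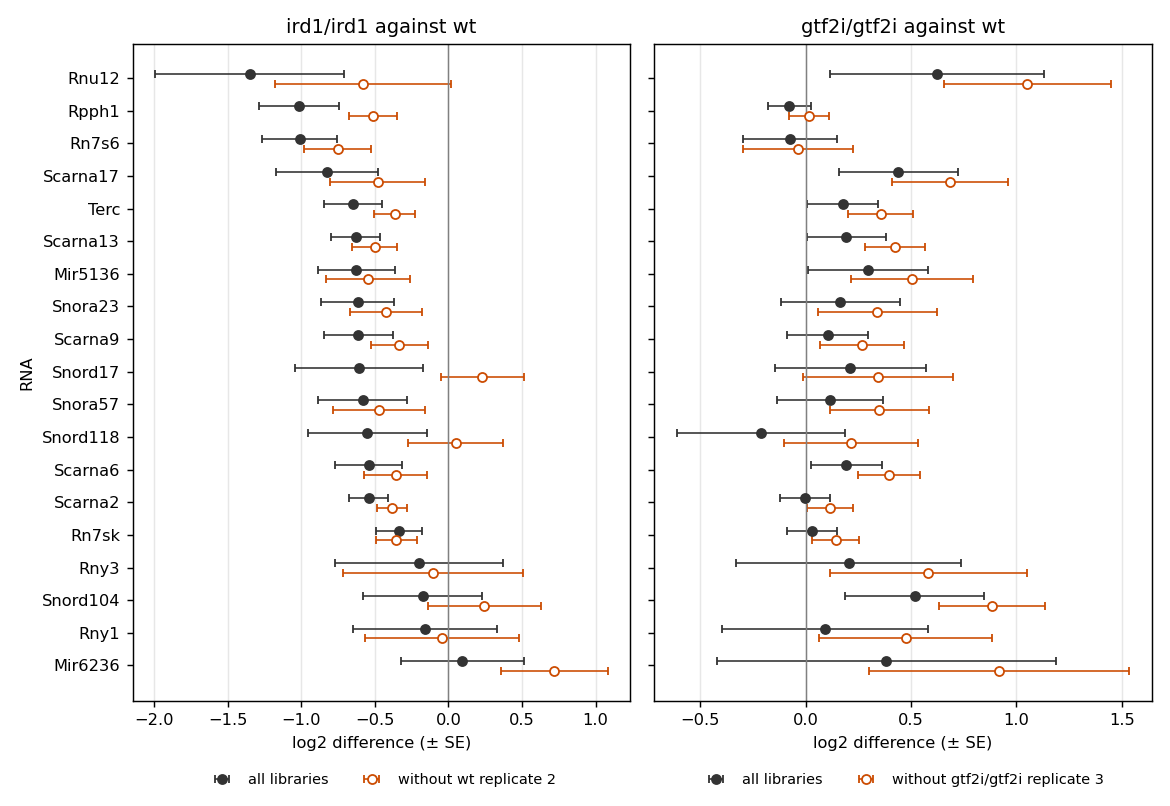
Log2 difference (horizontal axis) of each of the 19 RNAs between ird1/ird1 and wt (left) and between gtf2i/gtf2i and wt (right), with bars of 1 SE from edgeR. Filled points use all 9 libraries of a comparison and open points leave out the named library. On the left 18 of 19 filled points lie below 0 and 15 of 19 open points do, and on the right 15 of 19 filled points lie above 0.

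Brains with 1 mutant allele were compared with the same wt libraries. Between ird1 and wt, edgeR called 0 members (0.00% of all genes) and DESeq2 called 0, and 5 members were lower at an unadjusted p under 0.05 (3.02% of all genes, 1.73% in the lower direction). All 19 were lower in ird1, with a median log2 difference of -0.49. With the length trend removed the median was -0.16, with 16 lower and 2 at an unadjusted p under 0.05 (2.97% of all genes). Of the 56 histone genes 0 were called and 16 were lower at an unadjusted p under 0.05, with a median log2 difference of -0.20, and the mitochondrial median was 0.16. Mitochondrial transcripts held 0.562% to 0.618% of counts in ird1. Only wt replicate 2, at 0.218%, was below that range, and the other wt libraries held 0.615% and 0.680%. The part of histone or mitochondrial genes in the levels of the small RNAs was not tested. The libraries did not overlap for 4 members, all lower (3.89% of all genes): Scarna2, Scarna13, Terc and Scarna17. Without wt replicate 2 the median was -0.21, 18 members were lower and 0 had an unadjusted p under 0.05, while that count was 12 (5.93% of all genes) when wt replicate 1 was left out and 2 (2.30%) when ird1 replicate 3 was. Rnu12, Scarna17 and Terc, which had the smallest p here, were at log2 differences of -1.60, -0.98 and -0.54 with all libraries. Without wt replicate 2 they were at -0.82, -0.63 and -0.26. Both mutant groups were set against the same 3 wt libraries, so their shared direction is not independent.

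Few members separated the mutant groups of the ird1 comparison. Between ird1/ird1 and ird1, edgeR called 0 members (0.00% of all genes) and DESeq2 called 0. One member, Rn7s6, had an unadjusted p under 0.05 (4.66% of all genes, 1.82% in the lower direction), at a log2 difference of -0.54 (SE 0.250, adjusted p = 0.766), and its libraries did not overlap (8.54% of all genes in the lower direction). The median over members was -0.11, with 12 lower and 7 higher, and leaving out replicate 1, 2 or 3 of the ird1/ird1 brains moved it to -0.02, 0.06 or -0.42. With the length trend removed it was 0.02, with 8 lower, and the title numbers differed in direction, with 17 lower under 11610 and 13 higher under 11902. Mir6236 had the widest difference, 0.88 (SE 0.418, adjusted p = 0.766), which was 0.20 without ird1/ird1 replicate 3, the library at 1866 CPM. Members at an unadjusted p under 0.05 numbered between 0 (without ird1 replicate 2, 1.56% of all genes, or wt replicate 1, 4.33%) and 4 (without wt replicate 2, 12.3%, or ird1/ird1 replicate 3, 3.25%).

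In the gtf2i comparison no member was called between gtf2i/gtf2i and wt brains, and the direction of the members differed between sets of libraries. Of the 19 members edgeR called 0 (0.940% of all genes were called) and DESeq2 called 0, and 0 members had an unadjusted p under 0.05 (14.4% of all genes). By the sign of the log2 difference 15 members were higher and 4 lower in gtf2i/gtf2i, with a median log2 difference of 0.17. With the length trend removed the median was 0.05 and 9 members were lower. Under title number 11619 (1 library against 1, as for each number here) 17 members were higher, with a median of 0.26, and under 12301 13 were higher, with a median of 0.09. Under 12419 15 were lower, with a median of -0.19. The libraries overlapped for all 19, while they did not for 7.82% of all genes in the higher and 8.98% in the lower direction. The smallest p belonged to Snord104, a box C/D snoRNA on chromosome 11 (chr11:106500991-106501063), which was at 6.50, 7.46 and 12.3 (wt), 5.10, 6.81 and 8.63 (gtf2i) and 6.26, 14.1 and 18.01 CPM (gtf2i/gtf2i). Its gtf2i/gtf2i group held 1 low library, replicate 3, beside a pair above every gtf2i and wt library. Snord104 in the ird1 comparison was at 5.12, 11.4 and 18.8 (wt), 6.54, 6.67 and 7.62 (ird1) and 6.24, 6.51 and 16.9 CPM (ird1/ird1), where the ird1/ird1 group held 1 high library beside a low pair.

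The test of Snord104 turned on single libraries. The log2 difference between gtf2i/gtf2i and wt was 0.52 (SE 0.332, adjusted p = 0.535 by edgeR) with all libraries and 0.88 (SE 0.253, adjusted p = 0.0349) without gtf2i/gtf2i replicate 3, when 1 of 19 members and 9.90% of all genes were called. Without gtf2i/gtf2i replicate 2 it was 0.22. Over all members, the median was -0.01 with 11 lower without gtf2i/gtf2i replicate 1, 0.06 with 7 lower without its replicate 2 and 0.36 with 1 lower without its replicate 3, and the count at an unadjusted p under 0.05 was 1, 2 and 6 (13.8%, 13.1% and 23.2% of all genes) when wt replicate 1, wt replicate 2 or gtf2i/gtf2i replicate 3 was left out.

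Between gtf2i and wt, edgeR called 0 members (0.00854% of all genes) and DESeq2 called 0, and 0 had an unadjusted p under 0.05 (1.60% of all genes). Here 14 members were lower and 5 higher, with a median log2 difference of -0.06, but 9 were lower and the median was 0.003 with the length trend removed. The libraries of all 19 overlapped (3.48% of all genes did not in the higher and 3.79% in the lower direction). The Y RNAs had the smallest p, at log2 differences of -0.84 (SE 0.494) for Rny1 and -0.85 (SE 0.540) for Rny3, both with adjusted p = 1. Single libraries moved both widely: Rny1 was at -0.42 without wt replicate 2 and -1.38 without gtf2i replicate 1, and Rny3 at -0.40 and -1.54. Snord118, the U8 snoRNA needed for processing of precursor ribosomal RNA (chr11:69073426-69073562), was at 6.34, 9.63 and 15.9 (wt), 5.56, 5.81 and 10.9 (gtf2i) and 3.82, 10.6 and 13.4 CPM (gtf2i/gtf2i). In the ird1 comparison it was at 4.37, 8.11 and 18.8 (wt), 4.72, 5.28 and 7.07 (ird1) and 4.02, 6.50 and 8.80 CPM (ird1/ird1). All groups of Snord118 overlapped. The count of members at an unadjusted p under 0.05 was 2, 3 and 1 (1.48%, 2.10% and 2.5% of all genes) when wt replicate 1, gtf2i replicate 1 or gtf2i/gtf2i replicate 3 was left out.

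Between gtf2i/gtf2i and gtf2i, edgeR called 0 members (3.12% of all genes) and DESeq2 called 0. At an unadjusted p under 0.05, 2 members were higher in gtf2i/gtf2i (16.5% of all genes, 7.14% in the higher direction): Rnu12, at a log2 difference of 1.27 (SE 0.527, adjusted p = 0.238), and Snord104, at 0.86 (SE 0.343, adjusted p = 0.213). Without gtf2i/gtf2i replicate 2 they were at 0.70 and 0.56. The libraries overlapped for all 19 members, against 9.17% of all genes without overlap in the higher and 10.0% in the lower direction, and the median was 0.20 with 13 higher. That median was 0.04 with the length trend removed, 0.02 without gtf2i/gtf2i replicate 1 and 0.40 without its replicate 3, and under title number 12419 12 of 19 members were lower. Without gtf2i/gtf2i replicate 3, edgeR called 3 of 19 members and 11.8% of all genes, the members being Rny1 at 1.31 (SE 0.411, adjusted p = 0.0478), Rnu12 at 1.69 (SE 0.410, adjusted p = 0.0128) and Snord104 at 1.23 (SE 0.262, adjusted p = 0.00613). As other single libraries were left out, the count at an unadjusted p under 0.05 was between 0 (gtf2i replicate 2, gtf2i replicate 3 or gtf2i/gtf2i replicate 2 left out, 11.2% to 11.7% of all genes) and 6 (gtf2i replicate 1 left out, 16.9%). Markers of red blood cells were higher in gtf2i/gtf2i too: 5 of 8 in the table were called against gtf2i and 2 against wt, and their summed level was 5790 to 9184 CPM in gtf2i/gtf2i, 3796 to 4196 CPM in gtf2i and 4091 to 5314 CPM in wt. Against gtf2i, 3 of 7 radial glia markers (Vim, Nes and Hes5) were called higher too, with summed levels of 2331 to 2697 CPM against 1967 to 2179 CPM, as was 1 of 7 mesenchyme markers (Lum). The radial glia markers did not all rise: 1 of the 7 was lower at an unadjusted p under 0.05, and their median log2 difference was 0.12. The part of red blood cells, radial glia or mesenchyme in the levels of the small RNAs was not tested.

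The difference between the effects in homozygotes was tested directly, as the gtf2i/gtf2i effect minus the ird1/ird1 effect on all 18 libraries. Of the members, edgeR called 0 (0.171% of all genes) and DESeq2 called 0, and 9 had an unadjusted p under 0.05, all with the gtf2i/gtf2i effect higher (13.0% of all genes, 6.48% in the higher direction). All 19 differences were above 0, with a median of 0.73 on the log2 scale, but 7 were below 0 with the length trend removed and up to 3 were when a single library was left out. The members with the smallest p were Scarna13 at 0.82 (SE 0.273, adjusted p = 0.255), Terc at 0.82 (SE 0.287, adjusted p = 0.263) and Rpph1 at 0.93 (SE 0.332, adjusted p = 0.269). Without wt replicate 2 of the ird1 comparison the median was 0.44, 4 members (against 9.93% of all genes) had an unadjusted p under 0.05 and Rpph1 was at 0.43 and Terc at 0.54, and with the length trend removed the median was 0.20 and that count was 2 (12.1% of all genes). It was 13 without gtf2i/gtf2i replicate 3 (24.5%) or ird1/ird1 replicate 3 (12.8%). At an unadjusted p under 0.05, 35 of 56 histone genes had a higher and 3 of 6 neuronal markers a lower gtf2i/gtf2i effect (0 of either called), and their part in the members' differences was not tested. Without gtf2i/gtf2i replicate 3, 3 of 19 members and 6.18% of all genes were called, the members being Scarna2 at 0.65 (SE 0.188, adjusted p = 0.0441), Scarna13 at 1.05 (SE 0.242, adjusted p = 0.0167) and Terc at 1.00 (SE 0.283, adjusted p = 0.0417).

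The wt brains of the comparisons were set against each other as a check. Between wt of the gtf2i comparison and wt of the ird1 comparison, edgeR called 0 members (0.00% of all genes) and DESeq2 called 0, and 5 members were lower in the former at an unadjusted p under 0.05 (32.7% of all genes, 15.6% in the lower direction): Rn7sk, Rpph1, Scarna13, Terc and Rn7s6. This contrast and those of the ird1 comparison share the wt libraries of the ird1 comparison. The median log2 difference was -0.32 with 13 members lower, and 0.009 with 9 lower once the length trend was removed. Of the histone, mitochondrial and neuronal genes 0 were called. At an unadjusted p under 0.05, 35 of 56 histone genes were lower (median -0.37), 5 of 11 mitochondrial transcripts higher (median 0.53), and 4 of 6 neuronal markers higher and 1 lower (median 0.46), and their part in the members' differences was not tested. Mitochondrial transcripts held 0.631% to 0.945% of counts in wt of the gtf2i comparison. In wt of the ird1 comparison they held 0.218% in replicate 2 and 0.615% and 0.680% in the others. Libraries did not overlap for 3 members, all lower (15.6% of all genes). Without wt replicate 2 of the ird1 comparison the median was -0.12 and 3 members (15.9% of all genes) had an unadjusted p under 0.05. That count was 11 (35.3% of all genes) without its wt replicate 1, and 8 (38.4%) and 2 (19.5%) without wt replicates 1 and 3 of the gtf2i comparison. Without wt replicate 1 of the ird1 comparison Rpph1 was called, at -0.82 (SE 0.246, adjusted p = 0.0478), with 8.81% of all genes. Without wt replicate 1 of the gtf2i comparison Snora23 at 0.84 (SE 0.278, adjusted p = 0.0438) and Mir5136 at -0.91 (SE 0.308, adjusted p = 0.0469) were called, with 17.7% of all genes. Comparison and title number cannot be told apart here, since no title number occurs in both.

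Levels of several members varied together from library to library. Over the 18 libraries, 173 relations of log2 CPM were computed, the 171 pairs of members and 2 pairs with another RNA. Each was tested by a two-sided permutation test with 100000 resamples and Benjamini-Hochberg adjustment, and 90 member pairs had an adjusted p under 0.05 for Pearson's r. In 11 pairs r was at least 0.8 over all libraries and within each comparison, and 10 pairs had a negative r. All relations share the total count of each library, and the libraries are of 6 genotypes. The resamples shuffled libraries across genotypes and title numbers, so the p-values take no account of levels shared within either.

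The tightest relation was that of the neighbouring Y RNA genes. Rny3 and Rny1 had r = 0.995 and rho = 0.979 (permutation p = 1e-05 for each, the smallest that the resamples can give, adjusted p = 0.000124 and 0.000216). Without the 2 libraries farthest from the median of Rny3 r was 0.993, and it was 0.996 within the gtf2i comparison and 0.994 within the ird1 comparison. Rnu12, on another chromosome, followed Rny3 with r = 0.897 and rho = 0.928 (permutation p = 1e-05 for each, adjusted p = 0.000124 and 0.000216), or 0.872 without the 2 farthest libraries, 0.975 in the gtf2i comparison and 0.866 in the ird1 comparison. Rnu12 also followed Snord104 (r = 0.923, rho = 0.874), Scarna17 (r = 0.897, rho = 0.874) and Snord118 (r = 0.861, rho = 0.825), with permutation p from 1e-05 to 5e-05. Without the 2 farthest libraries these r values were 0.876, 0.827 and 0.816, within the gtf2i comparison 0.958, 0.925 and 0.808, and within the ird1 comparison 0.905, 0.897 and 0.934. All 4 of these RNAs have at most 151 bases.

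A second group held longer RNAs. Scarna2 and Scarna13 had r = 0.933 and rho = 0.849 (permutation p = 1e-05 for each, adjusted p = 0.000124 and 0.000216), r = 0.885 without the 2 farthest libraries, and r = 0.883 and 0.977 within the gtf2i and ird1 comparisons. Terc followed Scarna2 (r = 0.904, rho = 0.874, permutation p = 1e-05 for each), with r = 0.804 without the 2 farthest libraries and 0.837 and 0.933 within the comparisons. It followed Scarna13 as closely (r = 0.890, rho = 0.880, permutation p = 1e-05 for each), with 0.866 without the 2 farthest libraries and 0.877 and 0.910 within the comparisons. Rn7sk stood outside the Y RNA group although RNA polymerase III transcribes both, at r = -0.004 and rho = -0.011 with Rny1 (permutation p = 0.987 and 0.967, adjusted p = 0.987 and 0.973). The r of Rn7sk and Rny1 was 0.346 within the gtf2i comparison and -0.026 within the ird1 comparison.

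Mir6236 was compared with n-R5-8s1, a gene of the 5.8S ribosomal RNA, and with the predicted gene Gm23935, both picked after their values were seen. Their p-values are left out, because the adjustment does not cover the genes from which they were picked. Mir6236 and n-R5-8s1 had r = 0.841 and rho = 0.849. That r was 0.825 without the 2 farthest libraries, 0.906 within the gtf2i comparison and 0.746 within the ird1 comparison. With Gm23935 the r was 0.919 and rho 0.891, r was 0.828 without the 2 farthest libraries, and 0.983 and 0.814 within the comparisons. The libraries had been depleted of ribosomal RNA, and n-R5-8s1 ranged from 2.9 to 182 CPM. The part of ribosomal RNA left after depletion in the level of Mir6236 was not tested.

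**Figure D4:**
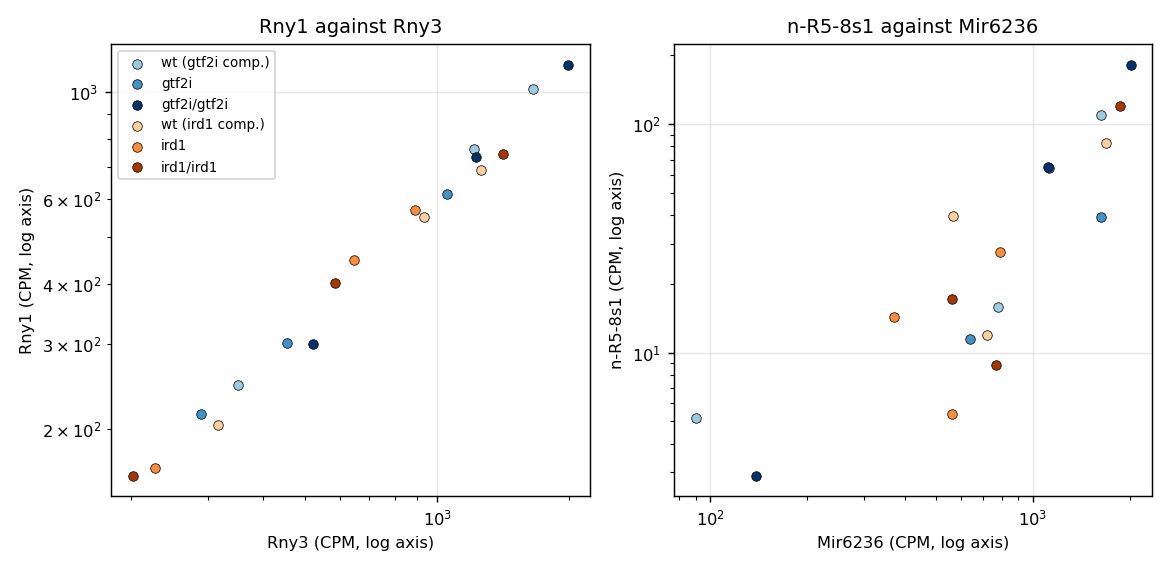
Level of Rny1 against Rny3 (left) and of n-R5-8s1 against Mir6236 (right) in CPM on log axes, 1 point per library, coloured by genotype group. The Y RNA points lie along a line with r = 0.995 over 18 libraries and colours mixed along it, and the right-hand points scatter more widely, with r = 0.841.

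Snord17 and Snora23, a box C/D and a box H/ACA snoRNA, were singled out after their values were seen, because their highest libraries shared the number that opens the sample title. Snord17 (chr2:144265982-144266202) was at 10.1 to 17.5 CPM in the 6 libraries of number 11610, at 14.7 to 47.7 CPM in 11902, at 18.01 to 43.4 CPM in 11619, at 36.6 to 47.9 CPM in 12419 and at 50.8 to 70.1 CPM in 12301. The 3 libraries of 12301, of 3 genotypes, were therefore the highest of all 18, and none of 11610 exceeded 17.5 CPM. Snora23 (chr7:110046364-110046547) was at 7.30 to 15.8 CPM in 11610, at 10.9 to 18.8 CPM in 11902, at 11.2 to 22.5 CPM in 11619, at 17.9 to 20.1 CPM in 12419 and at 25.9 to 31.4 CPM in 12301. It gave the same top number without overlap with the others. Within a genotype Snord17 ranged from 43.4 to 58.2 CPM in gtf2i and 11.8 to 17.5 CPM in ird1, narrower than within 11902 or 11619, and whether title number or genotype accounted for more of the spread was not tested. Over the 18 libraries the 2 had r = 0.920 and rho = 0.915, with r at 0.891 without the 2 farthest libraries, 0.868 in the gtf2i comparison and 0.791 in the ird1 comparison. No p-value is given for this pair, because the 2 were picked for sharing their highest libraries. Each number occurs in 1 comparison only.

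**Figure D5:**
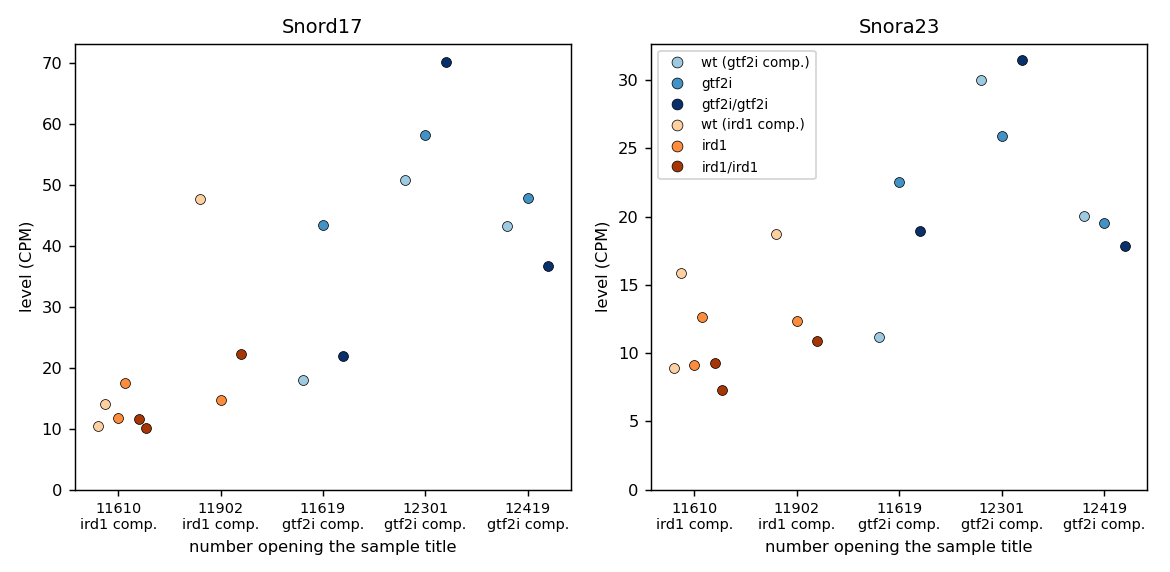
Levels in CPM (vertical axes, linear) of Snord17 (left) and Snora23 (right) by the number that opens the sample title, with the comparison it belongs to, 1 point per library coloured by genotype group. The 3 libraries of number 12301 are highest in both panels, at 50.8 to 70.1 CPM for Snord17 and 25.9 to 31.4 CPM for Snora23.

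Intronic members were set beside the genes they lie in. Snord17 lies within Snx5, which encodes a sorting nexin, and Snora23 within Ipo7, which encodes a nuclear import receptor (RefSeq, GRCm38.p6). The within-group SD of log2 CPM was 0.73 for Snord17 and 0.13 for Snx5, and 0.45 for Snora23 and 0.25 for Ipo7. The order was the other way for Scarna9, at 0.2998, and Cep295, the gene it lies in, at 0.33. Between ird1/ird1 and wt the log2 difference was -0.61 (SE 0.436) for Snord17, or 0.23 without wt replicate 2, and 0.27 (SE 0.115) for Snx5. It was -0.62 (SE 0.250) for Snora23 and 0.35 (SE 0.154) for Ipo7, and neither host gene nor snoRNA was called (adjusted p from 0.296 to 0.438 by edgeR). Snora57 and Mir5136 lie 13 bases apart within Lbhd1 on chromosome 19 (Snora57 at chr19:8888536-8888685), so reads of 1 precursor could be counted for either. In the same contrast their log2 differences were -0.58 (SE 0.30) for Snora57 and -0.63 (SE 0.263) for Mir5136, against -0.11 (SE 0.209) for Lbhd1. The protocol names a kit that does not mark the strand, and reads from introns of a host gene at these positions cannot be told apart from the snoRNA.

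The proteins that build, bind or make these RNAs were tested as lists written from general knowledge. None of the 21 snoRNA particle proteins and assembly factors in the table, 26 Sm, LSm and SMN complex proteins, 8 proteins of the 7SK particle and P-TEFb, 7 signal recognition particle proteins, 10 RNase P and RNase MRP proteins, 41 factors of small RNA gene transcription, 10 microRNA processing factors or 45 snoRNA host genes was called by edgeR in any of the 8 contrasts. Between ird1/ird1 and wt, unadjusted p-values were under 0.05 for 6 of the 21 snoRNA particle proteins (2 higher, 4 lower), 4 of the 26 Sm and LSm group (all lower), 4 of the 8 7SK and P-TEFb proteins (2 higher, 2 lower), 6 of the 41 transcription factors (1 higher, 5 lower), 1 of 10 microRNA factors (higher), 5 of 45 host genes (3 higher, 2 lower) and 0 of the RNase P and signal recognition particle proteins. Over all genes the share was 16.1% in either direction, so that several of these counts were near or below it. Among the 11 proteins of Y RNAs, telomerase and RNA 3′ ends in the table, Tep1, a telomerase-associated protein that is also part of vault particles, rose in gtf2i/gtf2i. Its log2 difference was 0.74 against wt (SE 0.136, adjusted p = 0.0199 by edgeR) and 0.54 against gtf2i (SE 0.134, adjusted p = 0.0438). The effect in gtf2i/gtf2i exceeded that in ird1/ird1 by 0.90 (SE 0.185, adjusted p = 0.0496). The telomerase RNA itself, Terc, differed by 0.17 (SE 0.171, adjusted p = 0.730) between gtf2i/gtf2i and wt.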

How the data were processed

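The members, gene lists and tests were chosen with earlier results of these data known. The authors deposited whole-number read counts per gene with 1 transcript length each. Per the submitters' processing notes, reads were handled with Trimmomatic, STAR and HTSeq on build mm10; versions, strand setting and the treatment of multiply mapped reads are not given in the sources used here. Libraries were made with an NEBNext Ultra II RNA kit after removal of ribosomal RNA, per the labels' protocols. The 32 chromatin immunoprecipitation and input samples of the series were not analysed here.

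Counts of all 11708 genes were scaled by TMM, and filterByExpr removed 0 genes. They were tested with edgeR's quasi-likelihood test (edgeR 4.0.16, R 4.3.3) with Benjamini-Hochberg adjustment over all genes, and "called" means an adjusted p under 0.05. The 6 contrasts within a comparison were fitted on its 9 libraries (6 residual degrees of freedom), and the other 2 on all 18 (12 residual degrees of freedom). CPM are counts scaled to a common total with the TMM factors. A log2 difference is the fitted log2 fold change with its SE. The scripts were tested on simulated data.

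Alternatives were DESeq2 1.42.0, RLE size factors, no filter, totals without the members, a lowess length trend removed (span 0.3), a replicate block, 1 fit on all 18 libraries and leaving out each library. Counting errors cover counting only, and amplified reads are not independent molecules. The SE of a log2 difference also includes the spread between libraries. The 18 pairs of libraries within groups differed beyond sampling noise, with chi-square values of 2.9 to 29.5 per degree of freedom.

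Members described in every library were those called in any contrast, the 3 with the highest mean CPM and the 3 with the smallest p in each contrast; Snord17 and Snora23 were added after their values were seen. In the gtf2i comparison each opening number of the titles occurs once per genotype. Deviations from the group means of gtf2i/gtf2i and wt libraries with the same number correlated at 0.103 to 0.520 in the 3 pairs. These numbers were therefore taken to pair the libraries. The block changed no call of a member, and the main values of this contrast are from the fit without it. With the block 5.33% of all genes were called, and 0 members and 18.9% of all genes had an unadjusted p under 0.05. All 19 member IDs were found in the table of gene names and 18 symbols in RefSeq (GRCm38.p6). Positions are RefSeq spans, which can differ from the deposited transcript (397 against 423 bases for Terc, 221 against 238 for Snord17). Those of Scarna2 (61 against 414 bases) and Scarna9 (42 against 70) cover the least of it and are not printed.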

Additional observations from a re-analysis of the deposited data

How the results depend on the processing

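No member was called in any contrast under DESeq2, RLE size factors, no filter, totals without the members, the length trend removed, the replicate block or 1 fit on all libraries. With single libraries left out, the number of called members ranged from 0 to 1 for gtf2i/gtf2i against wt, 0 to 3 for gtf2i/gtf2i against gtf2i, 0 to 3 for the difference of effects and 0 to 2 for wt against wt; it stayed at 0 for gtf2i against wt and for the contrasts of the ird1 comparison. Fits that leave 1 group with 2 libraries rest on a pooled spread. Called genes over the whole table varied more: 110 for gtf2i/gtf2i against wt (28 to 1159 with 1 library left out, up to 847 with the replicate block and length trend removed), 365 for gtf2i/gtf2i against gtf2i (67 to 1376, up to 1097), 20 for the difference of effects (12 to 723, 84 by DESeq2) and 0 for wt against wt (up to 2076, 1069 by DESeq2). Title numbers did not pair the libraries by the criterion used in the other contrasts, where same-numbered libraries correlated at -0.3 to 0.354. With the replicate block 12 rather than 11 members (17.1% of all genes with the block) had an unadjusted p under 0.05 in ird1/ird1 against wt. The count was 8 rather than 5 (3.43%) in ird1 against wt, 6 rather than 2 (21.2%) in gtf2i/gtf2i against gtf2i and 11 rather than 9 (16.4%) in the difference of effects. With both the block and the length trend removed it was 4 rather than 0 (3.04%) in gtf2i against wt. No paired analysis was possible for wt against wt, because the numbers are nested in the comparisons. No setting moved the median of all genes beyond 0.03 on the log2 scale. Counts of the 5 rarest members stayed under 100, so differences of their size carry a counting error of 10% or more in each library.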
